A study of Mus musculus with 32 samples.

Results

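The CCN family and YAP target genes described here are 10 named genes of the 49671 genes counted in mouse cortical neurons, namely Ccn1, Ccn2, Ankrd1, Amotl2, Ajuba, Lats2, Yap1, Wwtr1, Tead1, and Tead2. They were chosen by name, as CCN matricellular genes, other targets of YAP, and the components of the YAP pathway itself. The choice was made with results of these data known, among them lower Ccn1 counts at 5 d, and therefore the differences from untreated neurons at 5 d are given as a description without p-values. Calls in that contrast are counted only beside the share of all genes called and say nothing about these genes. All 10 genes were found in the count table, and 9 of them had at least 5 counts in at least 3 libraries of a time point. Ankrd1 did not and was not fitted.

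The neurons were prepared from the forebrain of wild-type C57BL/6 mouse embryos and kept in culture as primary cells. They were left untreated or were given one of 3 agents at the same concentration for 6 h or for 5 d, which gives 8 groups of 4 libraries. The agents are synthetic oligoribonucleotides added to the medium, of which 2 have the sequence of a mature miRNA and the third, Mut.oligo, is a mutated let-7b sequence used as the control for sequence specificity. Wherever 3 values are given for the 3 agents, they belong to miR-92a-1-5p first, then to miR-124-5p, and last to Mut.oligo. All groups share the genotype and the culture medium, and the study asked how neurons respond to these extracellular miRNAs over a short and a long exposure. The libraries of 6 h and 5 d came from different experiment batches.

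YAP and TAZ, encoded by Yap1 and Wwtr1, are coactivators without a DNA-binding domain of their own. They enter the nucleus and bind TEAD transcription factors, of which Tead1 and Tead2 are included here, and so activate genes for the extracellular matrix, the cytoskeleton, and growth. The Hippo kinase cascade opposes them, because LATS kinases such as the Lats2 product phosphorylate YAP and TAZ and keep them in the cytoplasm. Ccn1 and Ccn2, formerly Cyr61 and Ctgf, encode secreted matricellular proteins that bind integrins and are the usual readouts of YAP activity together with Ankrd1. Amotl2, Ajuba, and Lats2 are both regulators of the cascade and targets of it. In the brain, YAP and TAZ are known mainly from neural progenitors, astrocytes, and endothelial cells, and mature neurons are known for low levels of them.

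Promoter sequences are shown because the 10 genes are linked by TEAD. RefSeq promoter windows on GRCm38.p6, which run from 250 bases before to 50 bases after the start of transcription, were at hand for 8 of the 10 genes (not for Ccn2 and Tead1). The TEAD core motif was searched as GGAATG, or as CATTCC on the other strand, and overlaps with other motifs were not removed. It was present in 7 of the 8 genes, the exception being Tead2, and in 16.58% of the 27025 genes with such a window. The 4 windows below run 5′ to 3′ on the strand of the gene with the core in capitals, for a CCN target, 2 regulators that are targets themselves, and one of the coactivators.
Ccn1: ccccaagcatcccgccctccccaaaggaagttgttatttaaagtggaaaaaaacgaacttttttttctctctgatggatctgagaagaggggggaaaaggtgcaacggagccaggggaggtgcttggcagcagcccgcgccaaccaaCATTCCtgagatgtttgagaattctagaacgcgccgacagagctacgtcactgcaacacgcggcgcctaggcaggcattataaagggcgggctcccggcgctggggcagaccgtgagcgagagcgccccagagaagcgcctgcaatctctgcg
Ajuba: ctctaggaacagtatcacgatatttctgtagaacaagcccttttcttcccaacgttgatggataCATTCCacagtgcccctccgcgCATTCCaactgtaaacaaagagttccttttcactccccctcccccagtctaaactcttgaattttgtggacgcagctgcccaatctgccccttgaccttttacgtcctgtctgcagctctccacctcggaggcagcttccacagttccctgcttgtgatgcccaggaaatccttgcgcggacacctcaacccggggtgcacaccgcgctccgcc
Amotl2: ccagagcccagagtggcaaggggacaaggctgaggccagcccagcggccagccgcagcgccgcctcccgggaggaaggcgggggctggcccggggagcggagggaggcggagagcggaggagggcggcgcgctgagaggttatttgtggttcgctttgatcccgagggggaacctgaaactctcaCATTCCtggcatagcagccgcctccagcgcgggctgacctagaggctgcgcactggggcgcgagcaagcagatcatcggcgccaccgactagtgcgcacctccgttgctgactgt
Wwtr1: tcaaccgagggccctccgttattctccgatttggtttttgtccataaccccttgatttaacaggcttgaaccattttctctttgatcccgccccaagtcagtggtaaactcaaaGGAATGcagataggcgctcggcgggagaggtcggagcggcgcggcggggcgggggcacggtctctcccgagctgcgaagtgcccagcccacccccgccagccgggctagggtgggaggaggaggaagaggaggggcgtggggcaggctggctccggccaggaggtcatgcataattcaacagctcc
The Ccn1 window lies at chr3:145649936-145650235 on the minus strand, with the core at −103 and a TATAAA box at −25 from the start. The Ajuba window (chr14:54577612-54577911, minus strand) holds 2 cores, at −186 and −164. In Amotl2 (chr9:102717554-102717853, plus strand) the core is at −65, and in Wwtr1 (chr3:57575861-57576160, minus strand) at −136. The serum response element known as the CArG box was found in 0 of the 8 genes, and in 1.806% of the 27025 genes with a window. At that share, 8 genes are too few to show a difference. These are matches of letters and do not show that a factor binds.

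Of the agents, the mature sequence of miR-92a-1-5p was taken from RefSeq (chr14:115044437-115044459, plus strand), with the seed at positions 2 to 8 in capitals.
miR-92a-1-5p: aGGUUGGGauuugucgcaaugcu

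Between 24514090 and 73626029 counts were held by a library, with medians of 33021610 at 6 h and 50126395 at 5 d, so that 3 counts correspond to 0.0407 to 0.122 CPM. CPM are counts relative to the library total after scaling of the libraries by TMM. Each library also carries an experiment batch, here lettered A to G at 6 h and H to M at 5 d. Untreated libraries shared their batch with 4, 2, and 2 exposed libraries of the 3 agents at 6 h and with 2, 2, and 3 at 5 d. A within-batch difference is log2(CPM + 0.1) of the treated library minus that of the untreated library of the same batch. The labels call the replicates biological without naming separate animals or cultures, and p-values measure only the spread between these libraries, part of which may be technical.

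The neuronal markers were abundant as labelled, with a median sum of 5539 CPM over 8 genes in untreated neurons at 6 h and 5227 CPM at 5 d, led by Tubb3 and Map2. The cultures also held RNA of other cells. The 8 markers of astrocytes and radial glia, led by Fabp7 and Slc1a3, summed to a median of 1055 CPM at 6 h and 2407 CPM at 5 d in untreated neurons. The 8 endothelial markers summed to 5.90 and 7.69 CPM and the 8 microglial markers to 9.98 and 13.4 CPM, and no marker of these lists was at 0 in all untreated libraries of a time. In such bulk samples, fewer cells of a type and less RNA per cell cannot be told apart.

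Per kilobase of exon, Amotl2 was the most abundant of the 10 genes in untreated neurons, and Ankrd1 was close to absent. At 6 h, the level of Amotl2, which encodes a junctional protein that binds YAP, was 12.2 ± 1.56 CPM per kb (SD, n = 4) and did not overlap with that of any other member. Lats2, Tead1, Tead2, Ccn1, and Wwtr1 followed at 3.97 ± 0.45, 3.85 ± 0.48, 3.41 ± 1.03, 3.35 ± 0.53, and 2.79 ± 0.86 CPM per kb (SD, n = 4), and each of them overlapped with its neighbour in this order. Yap1 was lower, at 1.31 ± 0.20 CPM per kb, followed by Ajuba at 0.83 ± 0.25 and Ccn2 at 0.713 ± 0.129, which overlapped with each other. At 5 d the order changed in that Wwtr1, at 6.62 ± 1.75 CPM per kb, stood second after Amotl2 at 8.21 ± 0.58, and their libraries overlapped. Ccn1 at 4.39 ± 1.71 and Tead1 at 3.8 ± 0.62 CPM per kb came next, then Lats2, Yap1, and Tead2 between 2.47 and 2.83 CPM per kb. Ccn2 and Ajuba were again at the lower end, with 1.05 ± 0.32 and 0.918 ± 0.222 CPM per kb.

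**Figure D1:**
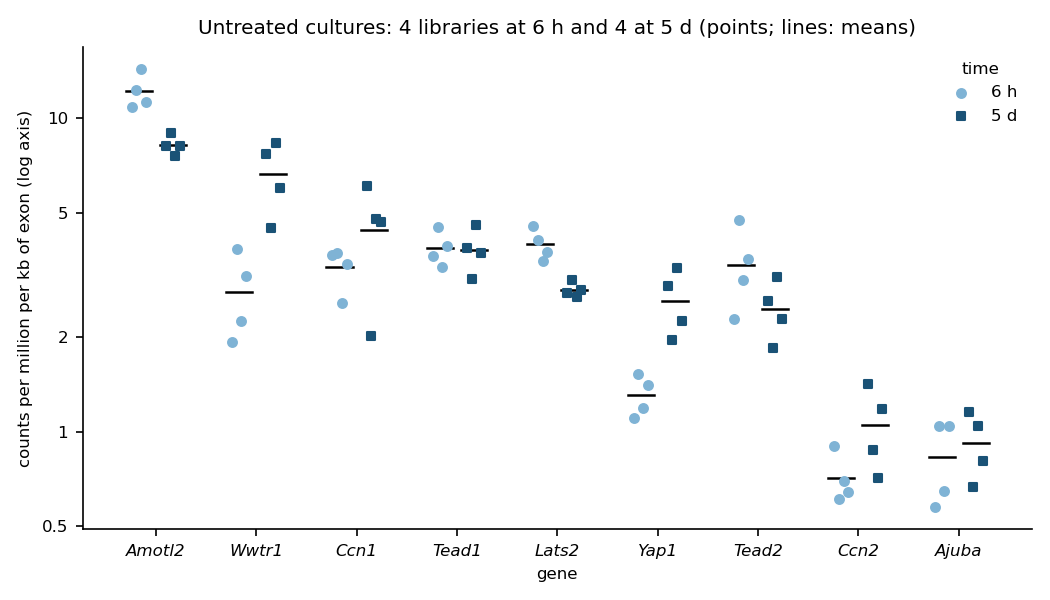
Levels of 9 of the 10 genes (without Ankrd1) in untreated neurons in CPM per kilobase of exon, on a log axis, at 6 h and 5 d, with 1 point per library and lines for the means. Amotl2 had the highest mean at both times, and Wwtr1 and Yap1 stood higher in all libraries of 5 d than in those of 6 h.

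Ankrd1 (ENSMUSG00000024803, chromosome 19 of GRCm38 from 36111961 to 36120099), which encodes a nuclear ankyrin repeat protein of muscle and a common YAP readout, had 14 counts over all 32 libraries. The highest count in a single library was 3, after miR-124-5p at 5 d, which is no more than the floor of 3 counts given above. All libraries of miR-92a-1-5p had 0 counts at both times. A difference in Ankrd1 was thus not detectable at this depth, and no fold change is given.

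The coactivators were higher in the untreated libraries of 5 d than in those of 6 h, which also differ in batch. In untreated neurons at 6 h, Yap1 (ENSMUSG00000053110, chromosome 9 from 7931999 to 8004596, minus strand) stood at 10.2, 14.2, 11, and 13.1 CPM in replicates 1 to 4, and at 5 d it stood at 26.9, 18.2, 30.9, and 20.9 CPM. All 4 libraries of 5 d were above all 4 of 6 h. Wwtr1 (ENSMUSG00000027803, chromosome 3 from 57455649 to 57575910, minus strand) was at 9.23, 18.3, 10.8, and 15 CPM at 6 h and at 36.6, 21.3, 40.0, and 28.6 CPM at 5 d, again without overlap. The log2 fold change of 5 d against 6 h was 1.00 for Yap1 (SE 0.18, adjusted p = 2.54e-05) and 1.24 for Wwtr1 (SE 0.25, adjusted p = 0.000116), by the quasi-likelihood test of edgeR, adjusted after Benjamini-Hochberg over 20425 genes. Between these times, 33.5% of the 20425 genes passed the limits used throughout, an adjusted p under 0.05 together with a log2 change beyond 0.5. Of the 9 members 3 did, which is near that share.

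The third member that passed was Amotl2 (ENSMUSG00000032531, chromosome 9 from 102716672 to 102733418), which fell. Its untreated levels were 68.4, 77.4, 90.4, and 70.9 CPM at 6 h and 51.2, 56.4, 47.6, and 51.4 CPM at 5 d. The log2 fold change was −0.57 (SE 0.08, adjusted p = 1.13e-06 by edgeR), and −0.45, past the p but not past the fold change, when untreated 6 h replicate 3, the highest library, was left out. Lats2 (ENSMUSG00000021959, chromosome 14 from 57689662 to 57758388, minus strand), the LATS kinase of this set, was likewise lower in all libraries of 5 d, with 18.7 to 21.2 CPM against 24.5 to 31.7 CPM. Its log2 fold change of −0.49 (SE 0.12, adjusted p = 0.0008) stayed within the limit of 0.5 and went to −0.51 without untreated 6 h replicate 3. In total, 4 of 9 members did not overlap between the times, against 48.2% of 19333 genes. Exons of Lats2 overlap with those of the gene model Gm49361 on the same strand, so its count is uncertain.

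The CCN genes and the TEAD genes did not pass between the times. Ccn1 had a log2 fold change of 0.40 (SE 0.24, adjusted p = 0.162 by edgeR) and Ccn2 of 0.56 (SE 0.26, adjusted p = 0.07). Both depended on single libraries. Without untreated 5 d replicate 2, which held the lowest Ccn1 level of its group, they were 0.66 and 0.67 and passed, so that 5 members were called against a background of 33.9%. Ccn2 also passed without untreated 6 h replicate 1, at 0.73, and without untreated 5 d replicate 3, at 0.71. Tead2 was at −0.47 (SE 0.25, adjusted p = 0.113), Ajuba at 0.14 (SE 0.25, adjusted p = 0.649), and Tead1 at −0.02 (SE 0.15, 95% confidence interval −0.32 to 0.28). Each batch belongs to 1 time point, therefore time and batch cannot be told apart in any of these values. The differences known when the set was chosen also used the untreated libraries of 5 d. The values of members between the times are therefore a description.

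Other genes of the pathway differed in both directions between the times, which also differ in batch. Of 17 other genes of the YAP and TAZ target signature, 5 rose (Axl, Igfbp3, Ptpn14, F3, and Gadd45a) and 2 fell (Myof and Fjx1). Of all genes tested, 33.5% passed in either direction. The median log2 fold change of the 17 was 0.26 against 0.037 for all genes tested. F3, the gene of tissue factor, rose by 1.79 (SE 0.21, adjusted p = 1.56e-08 by edgeR) from 5.60 ± 1.48 to 19.5 ± 3.55 CPM (SD, n = 4). Fjx1, the most abundant per kb of this list, had a log2 fold change of −0.76 (SE 0.08), and Igfbp3, which binds insulin-like growth factors, of 1.17 (SE 0.15). Crim1, the next in abundance, was at 0.18 (SE 0.11, adjusted p = 0.142). The call of Ptpn14 was lost without untreated 6 h replicate 1 or 3 or 5 d replicate 1 or 3 (0.51 to 0.61), and that of Myof without 6 h replicate 1 or 4 or 5 d replicate 2 or 4 (−0.57 to −0.41).

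Of 4 other CCN genes, Ccn3 and Ccn4 rose, where 33.5% of all genes passed between the times. Ccn3, formerly Nov, went from 13.8 ± 2.59 to 92.5 ± 10.3 CPM (SD, n = 4), a log2 fold change of 2.75 (SE 0.17, adjusted p = 3.5e-14 by edgeR). Ccn4 rose by 0.97 (SE 0.36, adjusted p = 0.0232), a call that was lost without untreated 6 h replicate 2 or 3 or 5 d replicate 1 or 4, at 0.79 to 0.91. Ccn6 stood at 0.20 CPM at 6 h and 0.12 CPM at 5 d.

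Of 22 kinases and regulators of the Hippo cascade itself, 4 passed between the times, where 33.5% of all genes did. Taok1 rose and Sav1, Wtip, and Frmd6 fell, with a median of 0.07 over the list. Sav1 encodes the scaffold of the MST kinases and fell by 0.61 on the log2 scale (SE 0.08, adjusted p = 7.47e-08 by edgeR), and Frmd6, a FERM domain protein at the cell cortex, fell by 0.77 (SE 0.12, adjusted p = 2.48e-06). Taok1, a kinase upstream of MST, rose by 0.52 (SE 0.13, adjusted p = 0.00116) and Wtip fell by 0.50 (SE 0.09), both near the limit. The call of Taok1 was lost without untreated 6 h replicate 2 (0.49), and that of Wtip without any single untreated library other than 6 h replicate 2 and 5 d replicate 3 (−0.50 to −0.43). Nf2, the gene of merlin and the most abundant of the list per kb, had a log2 fold change of −0.16 (SE 0.08, adjusted p = 0.0799), and Wwc1, which encodes the scaffold KIBRA, of 0.08 (SE 0.12). Of 10 genes of SRF and its coactivators, which respond to actin and share several targets with YAP, Vcl (1.23, SE 0.13) and Mrtfb (0.62, SE 0.08) rose and Srf (−0.68, SE 0.06) fell. The abundant Actb and Actg1 stood at −0.48 and −0.46, within the limit of 0.5 but beyond it without untreated 5 d replicate 2 (both −0.51), and Flna at −0.16.

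The glial markers moved in the same direction as the coactivators. Of the 8 markers of astrocytes and radial glia, 6 rose between 6 h and 5 d and none fell, where 33.5% of all genes passed. Their median log2 fold change was 1.24. Across the 16 libraries of 5 d, Yap1 went with the sum of these markers at r = 0.95 and rho = 0.94, and across those of 6 h at r = 0.83 and rho = 0.86. For Wwtr1, r was 0.92 and 0.93, for Tead2 0.84 and 0.89, and for Ajuba 0.87 and 0.86, at 5 d and 6 h. Leaving out the 2 libraries farthest from the median left r at 0.94 and 0.81 for Yap1. Subtracting batch means, it was 0.95 at 5 d and 0.34 at 6 h for Yap1, and 0.75 and 0.93 for Wwtr1. Ccn1 went with the markers at 5 d (r = 0.77, rho = 0.80) but not at 6 h (r = −0.15, rho = −0.03). For Ccn2, r was 0.39 and −0.78, for Amotl2 −0.56 and 0.06, and for Lats2 −0.12 and −0.74, at 5 d and 6 h. After subtracting batch means, r was 0.53 and −0.40 for Ccn2, −0.0006 and −0.23 for Amotl2, and 0.27 and −0.12 for Lats2, at 5 d and 6 h. These are descriptions over libraries that share experiments and agents, and the part of glial RNA in the levels was not tested.

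**Figure D2:**
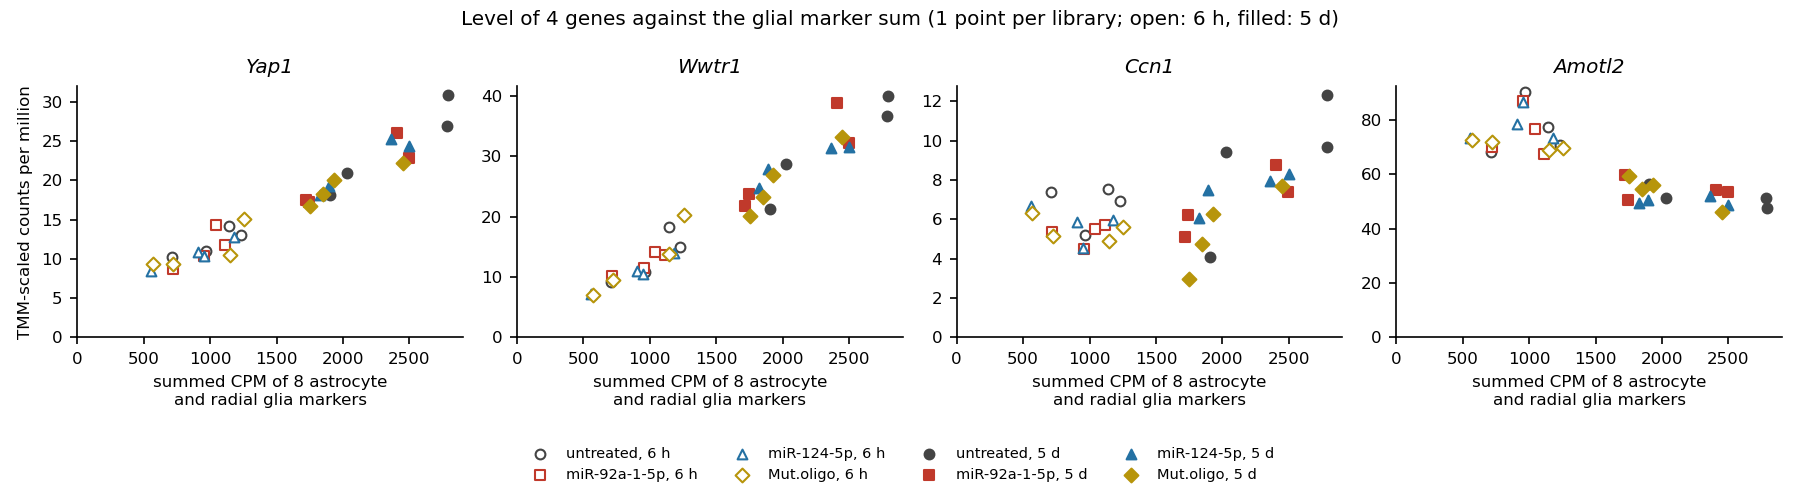
Levels of Yap1, Wwtr1, Ccn1, and Amotl2 against the summed level of the 8 astrocyte and radial glia markers, both in CPM on linear axes, with 1 point per library (open for 6 h, filled for 5 d) and symbols for the agents. Yap1 and Wwtr1 went up with the glial markers within both times, and Ccn1 within 5 d (r = 0.77).

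By a rule over the 16 libraries of 5 d and 13622 genes with at least 1 CPM, the genes most like Ccn1 were Cald1 (r = 0.94), Apobec3 (0.92), Irf9 (0.92), Nfatc1 (0.92), and Fos (0.91). Over the 16 libraries of 6 h, only Cald1 (0.47) and Fos (0.75) among them had a correlation with Ccn1 above 0.2. Wwtr1 stood at rank 10 for Ccn1 at 5 d (r = 0.89), and Ccn2 at r = 0.39. Over the libraries of 6 h, Wwtr1 was at r = 0.02 with Ccn1, and Ccn2 at r = 0.37. For Ccn2 the most alike were Rassf3, Shroom3, Ppp4r1l-ps, Mfsd2a, and Dock5, all between 0.69 and 0.70, and 4 of these 5 were negative at 6 h. The genes most like Yap1, looked up after its values were seen, were Gja1 (0.98), the gene of the astrocytic connexin and itself one of the 8 glial markers, and Smo, Ednrb, Cpt1a, and Plpp3 (each 0.97). The libraries share experiments, and Ccn2 rests on 27 to 244 counts per library.

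**Figure D3:**
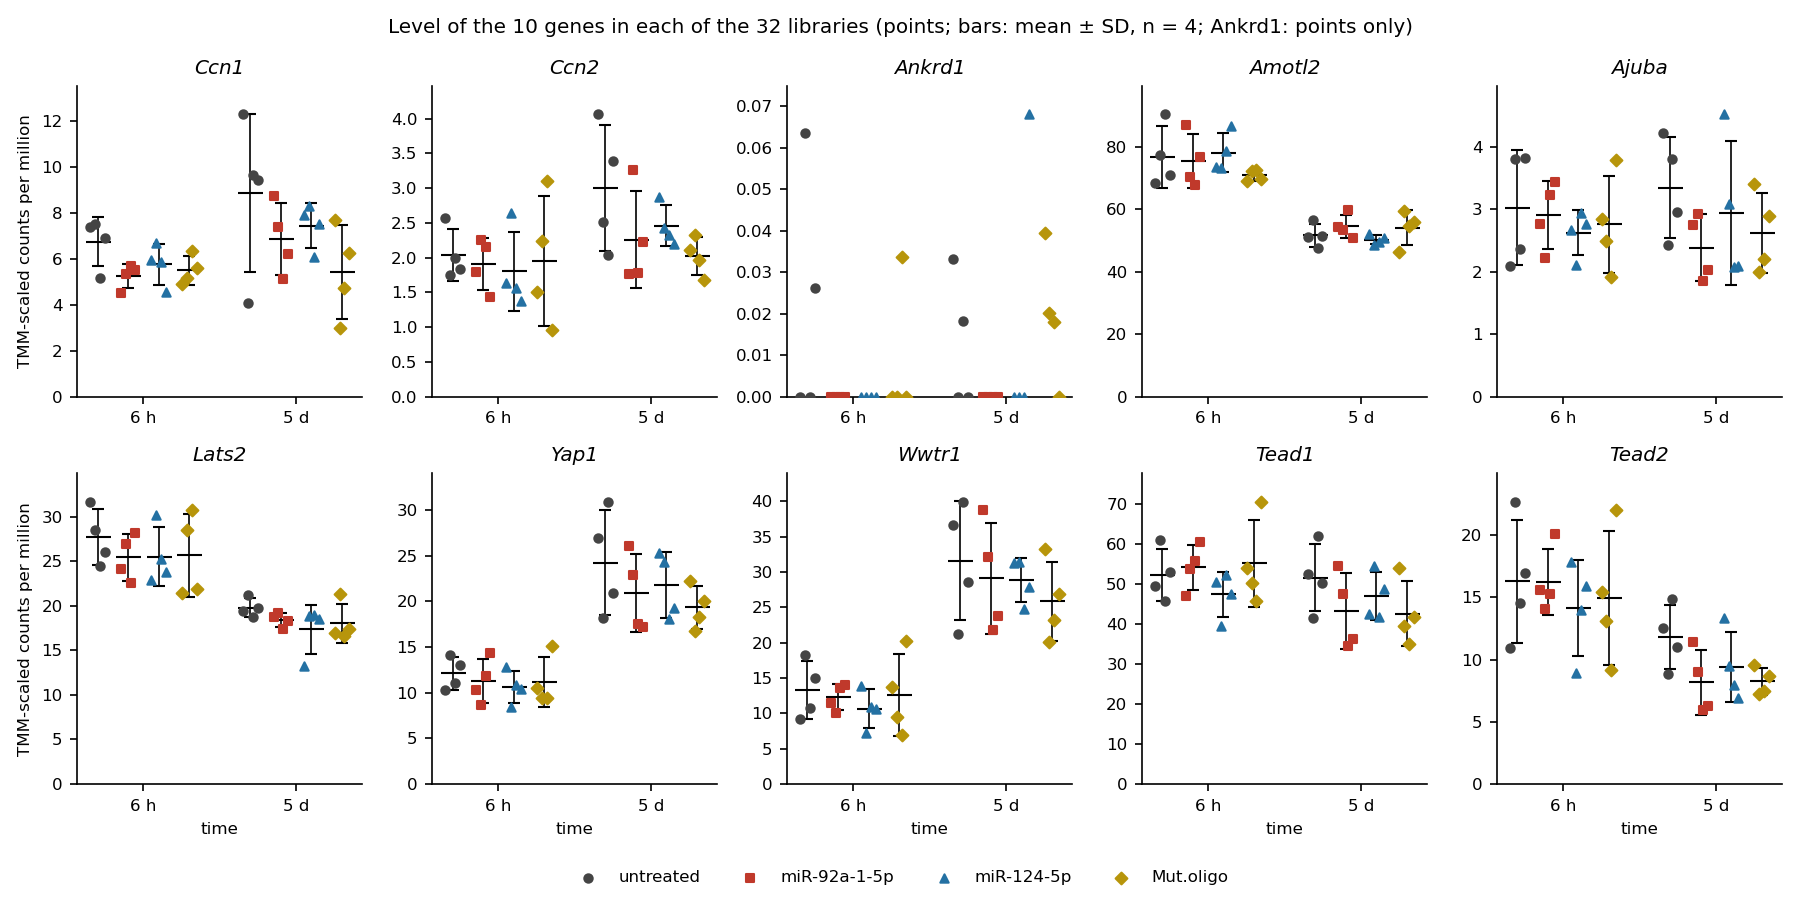
Levels of the 10 genes in CPM in all 32 libraries by agent and time, with 1 point per library and the mean ± SD of the 4 replicates (points only for Ankrd1). The untreated and exposed groups overlapped for all fitted genes at both times, and untreated Ccn1 ranged from 4.08 to 12.3 CPM at 5 d.

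After 6 h of exposure, Ccn1 was lower with all 3 agents within every shared batch, by an amount that did not pass the test. Ccn1 (ENSMUSG00000028195, chromosome 3 from 145646976 to 145649981, minus strand) had 7.40, 7.53, 5.19, and 6.92 CPM in untreated neurons at 6 h. It had 4.50, 5.34, 5.69, and 5.50 CPM after miR-92a-1-5p, 5.96, 6.69, 5.87, and 4.55 CPM after miR-124-5p, and 4.90, 5.16, 6.34, and 5.63 CPM after Mut.oligo. Untreated replicate 3 fell into the range of the exposed libraries, and it was the untreated library of batch A. Within batches, the difference was −0.46 to −0.20 for miR-92a-1-5p (4 of 4 lower), −0.21 and −0.19 for miR-124-5p (2 of 2), and −0.49 and −0.22 for Mut.oligo (2 of 2), and the agents share the untreated libraries. The log2 fold change was −0.36 (SE 0.14, adjusted p = 0.999), −0.22 (SE 0.14, adjusted p = 1.00), and −0.27 (SE 0.14, adjusted p = 0.581) by edgeR without a covariate. With the batch as covariate it was −0.36 (SE 0.09, adjusted p = 0.0689), −0.17 (SE 0.11, adjusted p = 0.892), and −0.39 (SE 0.11, adjusted p = 0.331).

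None of the 9 members passed against untreated at 6 h for any agent by edgeR. At an unadjusted p under 0.05 there were 1 (Ccn1), 0, and 0 members for the 3 agents, among 4.75%, 4.54%, and 9.49% of all genes. The background of calls was 0% of 18755 genes for each agent, and with the batch covariate 0.208%, 0%, and 0.0213%, again without a member. DESeq2 with the batch covariate also called 0 members. None of the 9 members separated from untreated in all libraries, where 3.4%, 3.45%, and 4.5% of genes did.

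The other CCN gene, Ccn2 (ENSMUSG00000019997, chromosome 10 from 24595442 to 24598683), had no steady direction at 6 h. It stood at 2.57, 1.75, 2.00, and 1.84 CPM untreated, 1.79, 2.26, 2.15, and 1.43 CPM after miR-92a-1-5p, 1.64, 2.65, 1.56, and 1.38 CPM after miR-124-5p, and 1.5, 2.24, 3.10, and 0.955 CPM after Mut.oligo. The 2 extremes were both Mut.oligo libraries. The log2 fold changes of −0.10, −0.17, and −0.03 had standard errors of 0.29, and intervals that reached from −0.79 to 0.59 over the agents.

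The coactivators, their TEAD partners, and the regulators had no call at 6 h, with intervals of different width. Yap1 had log2 fold changes of −0.10, −0.18, and −0.10 (SE 0.18 each), and Wwtr1 −0.11, −0.32, and −0.05 (SE 0.27 to 0.28), where the 95% confidence interval for miR-124-5p reached from −0.90 to 0.27. Tead2 was at −0.0014, −0.19, and −0.10 (SE 0.25 each), and Ajuba at −0.05, −0.20, and −0.11 (SE 0.22 to 0.23). Tead1 was at 0.06, −0.13, and 0.10 (SE 0.13 each). Amotl2 was measured most precisely, at −0.03, 0.03, and −0.09 (SE 0.08 each), with a 95% confidence interval of −0.19 to 0.14 for miR-92a-1-5p. Lats2 was lower in every shared batch for each agent, by 0.01 to 0.28 on the log2 scale, with fitted values of −0.12, −0.11, and −0.09 (SE 0.12 each). In all, 2, 5, and 6 of 9 members were lower in every shared batch, where 12.1%, 29.4%, and 34.6% of all genes were.

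The agent of each library is taken from its label. Whether the names miR-124-5p and Mut.oligo were exchanged between some libraries, at 6 h or at 5 d, was not tested. All values of these agents therefore hold for the libraries labelled with them.

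At 5 d, Ccn1 varied widely between batches. Its untreated libraries had 12.3, 4.08, 9.65, and 9.44 CPM, and those of miR-92a-1-5p 8.75, 7.41, 5.12, and 6.20 CPM. After miR-124-5p it had 7.92, 8.33, 6.08, and 7.51 CPM, and after Mut.oligo 7.71, 2.98, 4.75, and 6.28 CPM. The lowest libraries of untreated and of Mut.oligo were both from batch J and were the lowest of all 16. All 3 exposed groups overlapped with untreated, and they did so only through that untreated library. Within batch I, Ccn1 was 12.3 CPM untreated and 7.41, 8.33, and 7.71 CPM after the 3 agents. Within batch M it was 9.44 CPM untreated and 6.20, 7.51, and 6.28 CPM, and within batch J 4.08 CPM untreated and 2.98 CPM after Mut.oligo. So Ccn1 was lower in 2 of 2, 2 of 2, and 3 of 3 shared batches, by 0.60 to 0.72, 0.33 to 0.56, and 0.44 to 0.67 on the log2 scale.

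**Figure D4:**
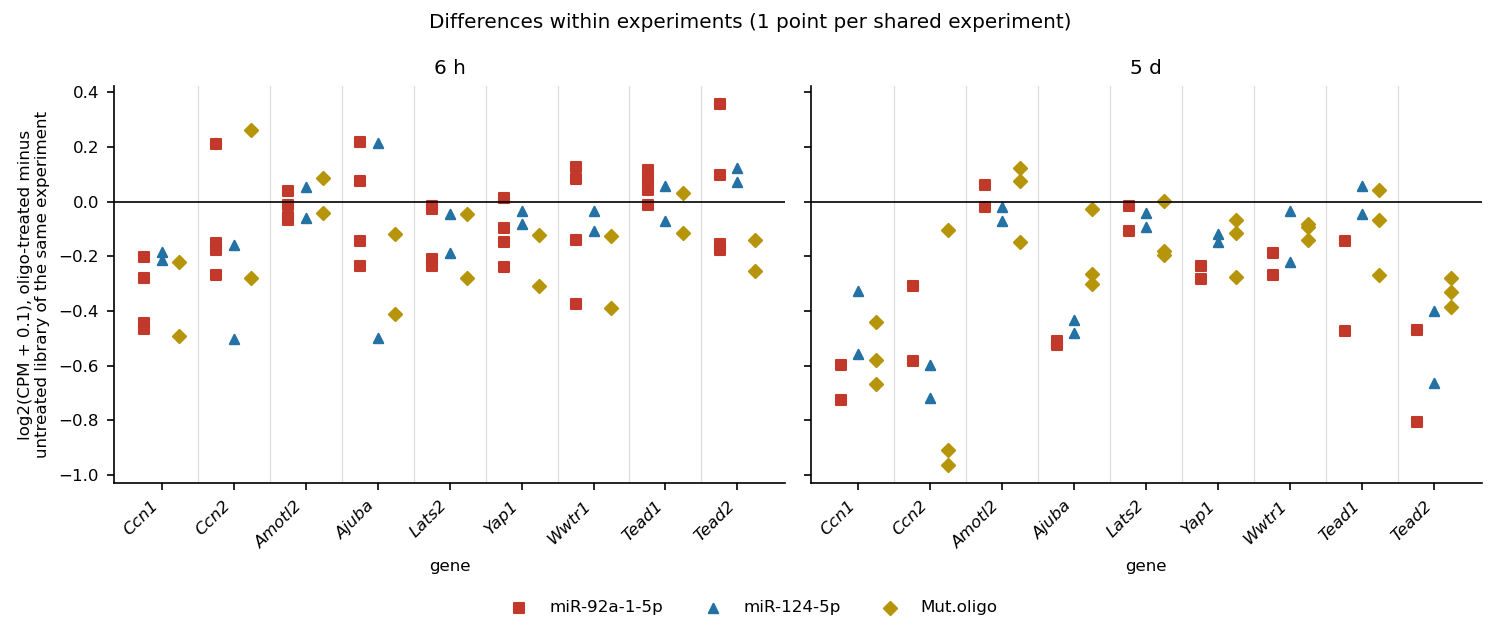
Within-batch differences from untreated in log2(CPM + 0.1) for the 9 fitted genes at 6 h and 5 d, with 1 point per shared batch and agent and the line marking no difference. Ccn1 lay below the line in all shared batches at both times, from −0.49 to −0.19 at 6 h and from −0.72 to −0.33 at 5 d, and Amotl2 stayed close to it.

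The fitted log2 fold changes of Ccn1 at 5 d were −0.37 (SE 0.28), −0.24 (SE 0.28), and −0.71 (SE 0.29) without a covariate, and −0.58 (SE 0.10), −0.45 (SE 0.10), and −0.62 (SE 0.09) with the experiment batch in the fit. By the limits used here, 0 members were called without the covariate for each agent, where 0.00517%, 0%, and 0% of 19333 genes were. With the covariate, edgeR called Ccn1 and Tead2 for miR-92a-1-5p (background 0.352%), no member for miR-124-5p (0.0259%), and Ccn1 for Mut.oligo (0.0466%). DESeq2 with the covariate called Ccn1, Tead2, and Ajuba for miR-92a-1-5p (background 0.61%) and Ccn1 for Mut.oligo (0.0879%). Since 5 d differences chose the set, nothing is read from these counts. No member was separate from untreated in all libraries, where 2.84%, 1.67%, and 2.03% of genes were.

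Ccn2 was also lower in every shared batch at 5 d, and its values were less precise than those of Ccn1. Untreated neurons had 4.06, 2.51, 2.04, and 3.39 CPM at 5 d, and those exposed to miR-92a-1-5p 1.77, 3.27, 1.79, and 2.23 CPM. After miR-124-5p it stood at 2.87, 2.43, 2.33, and 2.20 CPM and after Mut.oligo at 2.12, 2.33, 1.97, and 1.69 CPM. All 12 exposed libraries were below the 2 highest untreated ones, and 4 of them were below all untreated libraries. Within batches Ccn2 was lower in all 7 pairs, by 0.31 to 0.58, 0.60 to 0.72, and 0.10 to 0.96, in the order above. With the covariate the fitted values were −0.54 (SE 0.21), −0.41 (SE 0.21), and −0.67 (SE 0.19).

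Of the TEAD genes, Tead2 (ENSMUSG00000030796, chromosome 7 from 45215753 to 45233644), a TEAD factor of early neural tissue, was lower and Tead1 (ENSMUSG00000055320, chromosome 7 from 112679318 to 112906807) had no steady direction. Tead2 had 12.5, 8.84, 14.9, and 11 CPM untreated, 11.5, 9.02, 5.96, and 6.25 CPM after miR-92a-1-5p, 13.4, 9.48, 7.97, and 6.90 CPM after miR-124-5p, and 9.57, 7.27, 7.45, and 8.73 CPM after Mut.oligo. The lowest values were those of miR-92a-1-5p in batches K and M. Within batches the difference was −0.80 and −0.47, −0.66 and −0.40, and −0.39 to −0.28. Tead1 was at −0.47 and −0.14 for miR-92a-1-5p, at −0.04 and 0.06 for miR-124-5p, and at −0.27 to 0.04 for Mut.oligo within batches. Its fitted value with the covariate was −0.19 (SE 0.12) for miR-92a-1-5p and −0.13 (SE 0.11) for Mut.oligo, which does not show a difference between the agents.

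Ajuba (ENSMUSG00000022178, chromosome 14 from 54567472 to 54577558, minus strand), which encodes a LIM protein that restrains LATS kinases, ranged from 2.43 to 4.21 CPM untreated at 5 d and from 1.85 to 2.93 CPM after miR-92a-1-5p. Within batches it was lower by 0.51 and 0.52 after miR-92a-1-5p, by 0.43 and 0.48 after miR-124-5p, and by 0.03 to 0.30 after Mut.oligo. The coactivators were lower by less, namely Yap1 by 0.24 to 0.28, 0.12 to 0.15, and 0.07 to 0.28, and Wwtr1 by 0.19 to 0.27, 0.04 to 0.22, and 0.08 to 0.14. Lats2 ranged from −0.20 to 0.004 and Amotl2 from −0.15 to 0.12 over all pairs. Counted over the set, 8, 8, and 6 of 9 members were lower in every shared batch, where 28.4%, 29.4%, and 14.6% of all genes were, and the 3 agents share untreated libraries. Nothing is read from these counts either, since 5 d differences chose the set.

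**Figure D5:**
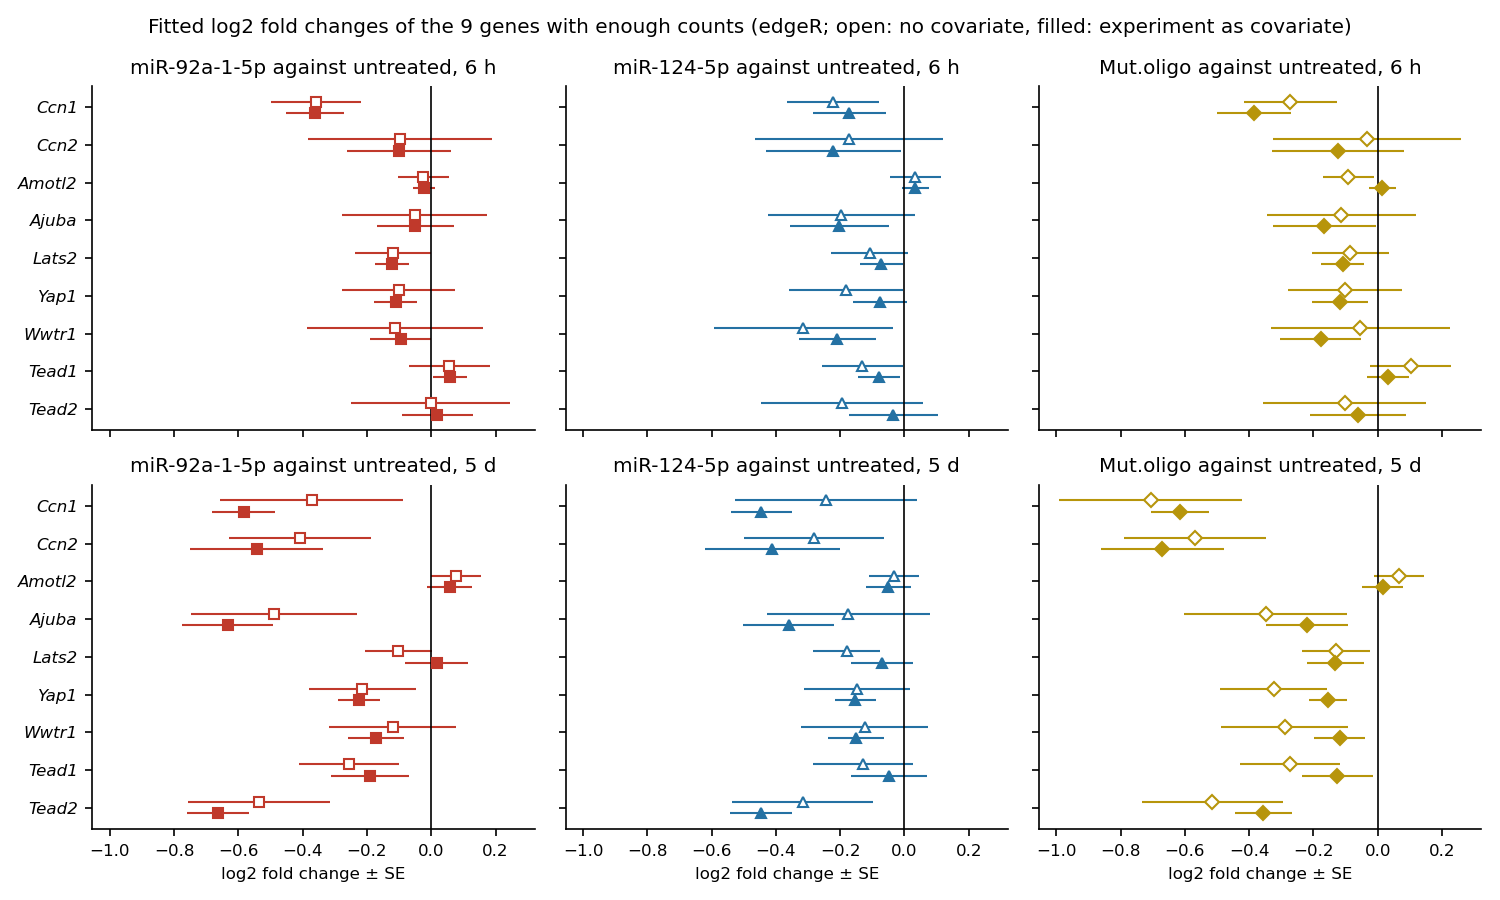
Fitted log2 fold changes (± SE) of the 9 genes against untreated for the 3 agents at 6 h and 5 d, by edgeR without a covariate (open) and with the batch as covariate (filled). Ccn1, Ccn2, and Tead2 lay to the left of 0 for all agents at 5 d, and Amotl2 within 0.1 of 0 in every panel.

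The rest of the pathway held no called gene after exposure. Of the 17 other YAP and TAZ targets, 22 Hippo genes, 10 SRF genes, and 4 other CCN genes, 0 were called at 6 h or 5 d for any agent by edgeR, with or without the batch covariate. Of all genes, at most 0.352% were called with the covariate and 0.00517% without it. The absence of calls therefore says little about these lists. The median log2 fold change of the 17 targets at 5 d was −0.06, −0.01, and −0.13 without the covariate and −0.15, −0.03, and −0.06 with it. For the 9 members it was −0.26, −0.17, and −0.32, and −0.22, −0.15, and −0.15, and for all genes between −0.007 and 0.003. The summed level of the 17 targets differed within batches by −0.04 to 0.01. Ccn3 was at 0.26, 0.11, and 0.13 at 5 d without the covariate (adjusted p = 0.684, 1.00, and 0.999 by edgeR), opposite in sign to Ccn1 and Ccn2 in that fit. Within batches, the sum of the 4 other CCN genes, led by Ccn3, differed by 0.13 to 0.24, −0.08 to 0.10, and −0.04 to 0.08. Both signs thus occurred for miR-124-5p and Mut.oligo.

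Several marker lists were lower within the same batches at 5 d. The sum of the 8 astrocyte and radial glia markers was lower by 0.16 to 0.22, 0.10 to 0.16, and 0.07 to 0.19 on the log2 scale for the 3 agents, and none of the 8 was called. The sum of the endothelial markers was lower by 0.85 to 1.12, 0.39 to 0.74, and 0.60 to 0.95, from a median sum of 7.69 CPM (6.56 to 11.6) untreated to 4.89 CPM (4.18 to 5.25), 6.12 CPM (5.11 to 6.87), and 5.15 CPM (4.23 to 5.95). Most of this sum was Kdr, the gene of a VEGF receptor, with a mean of 5.86 CPM untreated and 2.45, 3.32, and 2.33 CPM after the agents, whereas Pecam1 was at 1.32 CPM untreated and at 1.28, 1.41, and 1.54 CPM. The sum of the oligodendrocyte lineage markers was lower by 0.77 to 0.83, 0.37 to 0.51, and 0.40 to 0.57. Its gene Olig1 had a mean of 85.3 CPM untreated and 49.3, 69.0, and 65.5 CPM after the agents, whereas Mbp had 22.15 CPM and 22.97, 22.95, and 21.91 CPM. The sum of the smooth muscle and pericyte markers was lower by 0.33 to 0.53, 0.50 to 0.78, and 0.26 to 0.64. There Tagln had 2.50 CPM untreated and 1.175, 1.40, and 0.675 CPM, whereas Pdgfrb had 9.13 CPM and 9.38, 7.72, and 7.70 CPM. The sum of the fibroblast markers was lower by 0.30 to 0.64, 0.25 to 0.30, and 0.07 to 0.35. Its most abundant gene in CPM, Col3a1, had a mean of 23.0 CPM untreated and 15.8, 19.2, and 20.5 CPM after the agents, and Fbln1, the most abundant per kb together with Col1a1, of 15.9 CPM untreated and 14.8, 15.9, and 16 CPM. The sum of 8 cell cycle genes was lower by 0.63 to 0.65, 0.33 to 0.47, and 0.30 to 0.40. The neuronal sum differed by −0.05 to 0.09 and the microglial one by −0.27 to 0.20. The part of these lists in the values of Ccn1, Ccn2, and Tead2 was not tested.

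The agents were compared with each other in 3 pairs at each time, and 0 of 9 members passed in any of the 6 comparisons by edgeR, without or with the batch covariate. The background was 0% of genes without the covariate, and with it 0% at 6 h and 0.0103%, 0.0103%, and 0% at 5 d for miR-92a-1-5p against Mut.oligo, miR-92a-1-5p against miR-124-5p, and miR-124-5p against Mut.oligo. At an unadjusted p under 0.05 by edgeR, no member passed without the covariate. With it, Tead2 and Ajuba did in the first and the second of these at 5 d, among 8.87% and 7.68% of all genes. Against Mut.oligo, the log2 fold change of miR-92a-1-5p with the covariate was −0.31 for Tead2 (95% confidence interval −0.50 to −0.11, adjusted p = 0.471) and −0.41 for Ajuba (−0.70 to −0.13, adjusted p = 0.509). Against miR-124-5p it was −0.22 (adjusted p = 0.595) and −0.27 (adjusted p = 0.644). DESeq2 with the covariate called 0 members in these pairs as well. The exposed libraries of 5 d were part of the results known when the set was chosen. The 5 d values between agents, here and for Ccn1 below, are therefore a description.

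For Ccn1, no difference between the agents passed these tests. With the covariate at 5 d, its log2 fold change was 0.03 (95% confidence interval −0.16 to 0.23) for miR-92a-1-5p against Mut.oligo, −0.14 (−0.32 to 0.04) for miR-92a-1-5p against miR-124-5p, and 0.17 (−0.02 to 0.36) for miR-124-5p against Mut.oligo. At 6 h the intervals were −0.22 to 0.27, −0.43 to 0.05, and −0.04 to 0.47. Differences within these intervals cannot be told from 0 here, which does not show that the agents act alike. Amotl2 was higher in all 4 libraries of miR-124-5p than in all 4 of Mut.oligo at 6 h, at 73.3 to 86.7 against 69.0 to 72.7 CPM, but its log2 fold change was 0.13 without and 0.02 with the covariate.

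The difference between the response at 5 d and that at 6 h contains the 5 d values that chose the set, so it is given as a description. For Ccn1 it was −0.01, −0.02, and −0.41 without a covariate, and −0.22 for miR-92a-1-5p with the batch covariate. Members called numbered 0 by edgeR without the covariate (background 0% of 20425 genes for each agent) and, after miR-92a-1-5p, 0 by edgeR (0.137%) against 1 by DESeq2 (0.465%) with the covariate. Nothing is read from these counts.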

How the data were processed

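RNA-seq of 32 libraries was analysed, in 8 groups of 4 given by the labels (agent and time). Stranded single-end reads were mapped by the authors with STAR to GRCm38 and counted per gene on exons with featureCounts of Subread, and the raw counts of 49671 genes were deposited without normalization. All table columns matched a sample (0 left over), and 0 of 48 replicate pairs were identical.

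The members and gene lists were chosen with earlier results of these data known. The fits used edgeR 4.0.16 under R 4.3.3 and genes that reached 5 counts in 3 or more libraries (TMM, quasi-likelihood test, 16 libraries of a time point, no covariate, as the methods of the study name none; 32 libraries for contrasts between times). Genes were called at a Benjamini-Hochberg adjusted p under 0.05 over all genes tested and a log2 fold change beyond 0.5, limits of the study, which used DESeq2. Scripts were tested on simulated data. CPM were scaled by TMM over 32 libraries, and within-batch differences used log2(CPM + 0.1). The alternatives were experiment batch or replicate number as covariate, DESeq2 1.42.0 with and without batch, RLE size factors, no filter on counts, a minimum of 10 counts in all libraries, no limit on the fold change, a fit of just the 2 groups, and leave-one-out fits.

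Named genes were all members; in each pathway list, the 3 most abundant per kb and every called gene; in each marker list, the 2 most abundant; and the 5 genes most correlated with Ccn1 and Ccn2 at 5 d. Others are named where a result turned on them. Replicate numbers were not taken as pairs. Intervals of counts and floors cover counting error only. Matches of the miRNA sequence within the genes are not reported here.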

Additional observations from a re-analysis of the deposited data

Results flagged for a closer look

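One library stood apart from its group. Lats2 had 13.3 CPM in replicate 1 of miR-124-5p at 5 d, and the nearest of the other 3 replicates had 18.5 CPM, so that the gap was 0.926 of the whole range of the group, above Dixon's critical value for 4 samples. Such gaps were looked for in 72 groups of 4 (9 genes in 8 groups), of which chance flags about 1 in 20, and 1 was found. The library is from batch H, which holds no untreated library, so it enters no within-batch difference.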

How the results depend on the processing

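The number of members called stayed within 1.5 times the reported one in 236 alternatives and moved further in 6. For miR-92a-1-5p against untreated at 5 d, it went from 0 to 2 with the batch as covariate and to 3 with DESeq2 and that covariate. For Mut.oligo at 5 d, it went from 0 to 1 in each of these fits, and for the difference between 5 d and 6 h after miR-92a-1-5p to 1 (Tead2) with DESeq2 and the covariate. Between the times in untreated neurons it was 3, with a range of 3 to 5 when single libraries were left out, the 5 being without untreated 5 d replicate 2. For the fold changes of the members, 1845 alternative values were computed. Of these, 1827 stayed on the same side of the limits, 12 passed newly, 1 no longer passed, 5 without a call moved by more than their error, and no called value changed sign, whereas 158 values without a call had another sign than reported. The cause of these changes was not tested. The replicate number as a block changed no number of members called (0 in each comparison with untreated and between agents, and 3 between the times). The deviations of same-numbered libraries had a median r of −0.20 at 6 h (−0.54 to 0.59, 9 of 24 pairs over 0.1) and 0.26 at 5 d (−0.50 to 0.80, 14 of 24), against 0.02 and −0.15 for different numbers. Since not every pair was over 0.1, the numbers were not taken as pairs. Libraries of the same batch had a median r of 0.65 at 6 h (14 of 14 pairs over 0.1) and 0.52 at 5 d (15 of 17). For different batches it was −0.17 and −0.19. The fits without a covariate do not take this sharing of batches into account. Depth limited Ankrd1, with 14 counts in all, and Ccn2, with 27 to 244 counts per library.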
